A study of Mus musculus with 64 samples.

Results

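The 153 features described here lay higher in 3T3-L1 fat cells kept with TNF than in vehicle cells, and lower again in cells given TNF and then ASA and TGZ. They were chosen by rule among the 6664 features whose identifiers begin with MSK, out of 6963 features on the array. The rule used the odd-numbered arrays alone. A member had a TNF mean at least 0.3 log units above the vehicle mean there, and a combination mean at least 0.3 log units below the TNF mean. The members were 2.3% of the MSK features, and 15.8% of the 970 MSK features that met the first limit. Sizes and tests below come from the even-numbered arrays, which the choice did not use. No gene name could be given to any feature, because none of the identifiers (0 of 6963) matched the gene table used. Members are therefore named by identifier, and features that may represent the same gene cannot be told apart.

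Tumour necrosis factor is an inflammatory cytokine that fat tissue produces in obesity. It acts through its receptors on NF-kB and stress kinases, and in cultured fat cells it turns on inflammatory genes, turns down genes of the mature fat cell and weakens the response to insulin. ASA and TGZ are the labels' abbreviations, read here as acetylsalicylic acid (aspirin), which acts on cyclooxygenases and at high doses on NF-kB signalling, and troglitazone, a thiazolidinedione that activates the nuclear receptor PPAR gamma.

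The samples were cultures of 3T3-L1, a mouse fibroblast line differentiated into fat cells and used 8 to 12 days after the start of differentiation. The combination group (TNF+ASA+TGZ, 21 arrays) was given TNF (3 ng/ml) over 48 h, followed by 24 h with ASA at 5 mM and TGZ at 10 µM. It is unclear from the labels if TNF was still added during those last 24 h. The TNF group (21 arrays) had 3 ng/ml for 48 h and again for the last 24 h. The vehicle group (22 arrays) is named so by its titles, while its source text also gives TNF at 3 ng/ml for 48 h before 24 h in medium with 0.2% albumin. Whether vehicle cells ever received TNF is thus unsettled, and TNF against vehicle may compare its presence with its absence or its continued presence with its removal. Neither ASA nor TGZ was given alone, so their parts in the combination cannot be told apart. One array was hybridised per culture, with its RNA in Cy5 and a pool of untreated differentiated 3T3-L1 cells in Cy3. Fat cell markers could not be checked without gene names.

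The values are log ratios with at most 2 decimals, between -3.48 and 4.16, taken as log2 of sample over pool. Their base is an assumption and their direction is likely rather than settled. If the ratio ran the other way, every higher below would be a lower. Values of each feature appear centred on the vehicle arrays, so a level near 0 means near the vehicle mean and not near the pool. The even-numbered arrays comprised 10 combination, 10 TNF and 11 vehicle arrays, with medians from -0.05 to 0.04. A pair of vehicle arrays stood apart from their group by a wide spread. Array 17, among the odd ones, had an SD over features of 0.593, and array 6, among the even ones, had 0.60, against a median of 0.218 over the 22 vehicle arrays. The medians were 0.441 in the combination and 0.416 in TNF, and the widest array of all was combination array 13, among the odd ones, at 0.626. Array 17 also differed by well row, as given further on. Several results are also given without one of these 2 vehicle arrays, and none was recomputed without combination array 13.

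On the arrays that chose them, the members had a median difference of 0.40 log units between TNF and vehicle (0.301 to 1.97) and of -0.444 between the combination and TNF (-0.785 to -0.302). Both differences hold the same TNF arrays. The member nearest the first limit lay at 0.301 and had 0.338 on the even arrays. The MSK feature that just missed it lay at 0.297 and had 0.510 there. For the second limit, the nearest member lay at -0.302 and had -0.295 on the even arrays, and the nearest feature outside lay at -0.298 and had -0.067. The limits therefore do not mark a natural gap. On the even arrays 85 of the 153 members (55.6%) met both limits again, against a background of 6.77% (451 of 6664 MSK features). These 85 were 18.8% of the 451. A further 35 members met only the first limit, 18 only the second and 15 neither. Without vehicle array 6, 48 of the 153 met both, against a background of 4.04%.

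**Figure D1:**
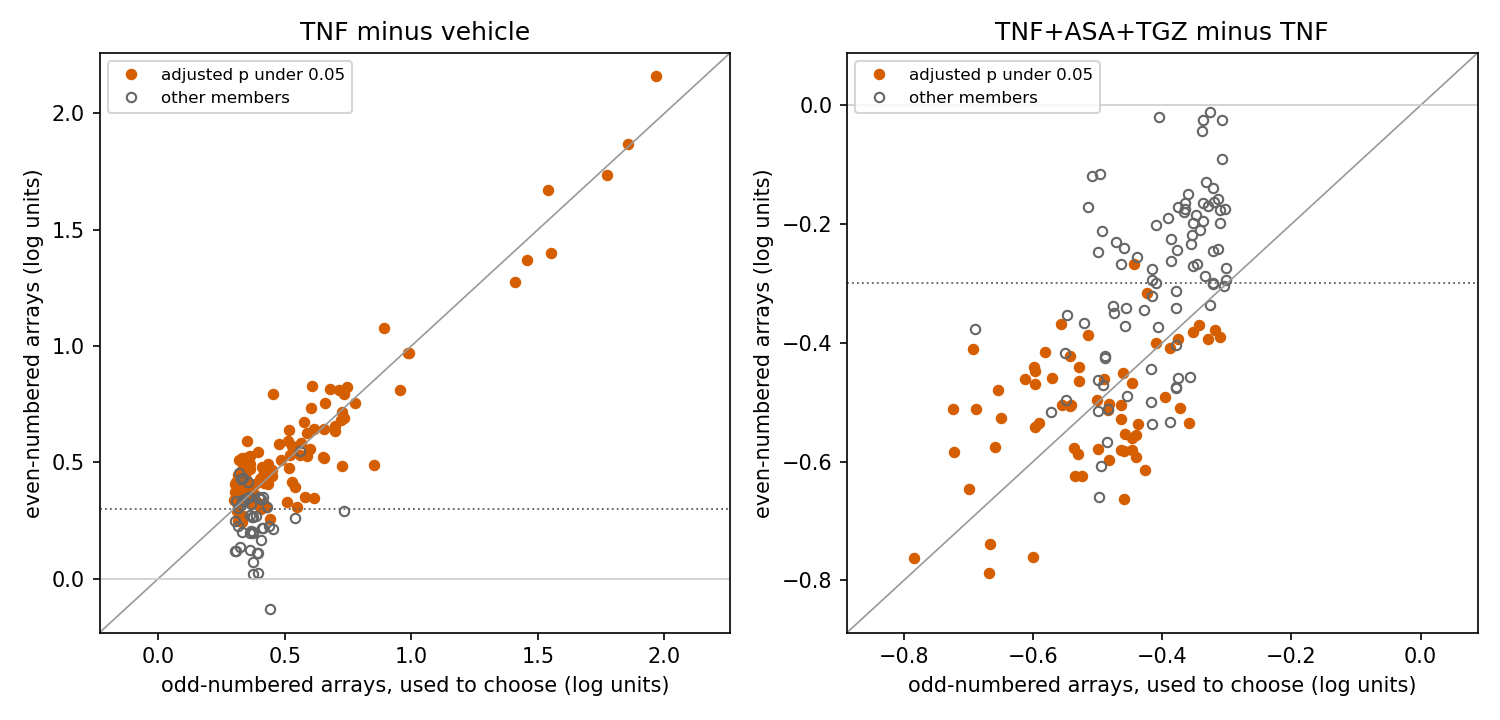
Difference of group means for each of the 153 members on the odd-numbered arrays that chose them (horizontal) and on the even-numbered arrays (vertical), in log units, for TNF minus vehicle (left) and TNF+ASA+TGZ minus TNF (right). Filled points had an adjusted p under 0.05 in limma on the even arrays, the dotted line marks 0.3 or -0.3 and the diagonal marks equal values. All members but 1 lie above 0 on the left and all 153 lie below 0 on the right.

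TNF against vehicle. The members kept their direction on the even arrays, with 152 of 153 higher in TNF and a median difference of 0.42 log units (-0.13 to 2.16). The same median was -0.03 over all features and 0.49 over the other 817 MSK features that met the first limit. In limma, with p-values adjusted over all 6963 features, 107 members (69.9%) rose, against a background of 20.5% of all features, and 0 fell, against 25%. Of the other 817 features, 672 (82.3%) rose. Every TNF array lay above every vehicle array for 22 members, against a background of 2.54%. Tested against a 1.2-fold difference, 27 members remained higher, with a background of 4.38%. With arrays scaled to a common spread, the number of members that rose was 68 in place of 107 (background 14.1%), and the split of all calls was 983 higher and 801 lower (11.5%) in place of 1425 and 1744. Without vehicle array 6, 96 members rose, with a background of 18.8%. The 1 member with a negative difference was MSK16m2, singled out after its values were seen. Its mean was -0.03 in TNF and 0.10 in vehicle arrays, a difference of -0.13 (SE 0.14, limma adjusted p = 0.444).

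The combination against TNF. All 153 members were lower in the combination on the even arrays, with a median difference of -0.40 log units (-0.79 to -0.01). This median was 0.02 over all features and -0.11 over the other 817 raised features. In limma 65 members (42.5%) fell, against a background of 5.46%, and 0 rose, against 3.16%. Of the other 817 raised features, which the rule had set apart by this very contrast on the odd arrays, 27 (3.30%) fell. With the replicate numbers shared by the groups as a block, 89 members fell, against a background of 8.8%. Over all features the block raised the number that differed between the combination and TNF to 1009, against 600 without it. The count was lower with other scalings of the arrays. In these fits 17 members fell with a common spread (background 1.49%) and 24 after quantile normalization (background 1.97%). It was 38 without TNF array 10, 43 without TNF array 2 and 40 without combination array 6. These counts stand without the share of all features that fell, so they do not show a drop particular to the members. The number of all features that differed in either direction was also lower without combination array 6, at 409 against 600. Without vehicle array 6, 85 members fell, with a background of 8.06%.

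Single features of this contrast were few. MSK19m7 was the only member lower by more than a tested 1.2-fold, with a background of 0.0718%. It had a lowest, median and highest value of -0.83, -0.37 and 0.30 on combination arrays, 0.10, 0.47 and 0.76 on TNF arrays and -0.45, 0.16 and 0.28 on vehicle arrays. The combination and TNF arrays overlapped between 0.10 and 0.30, and the difference was -0.74 (SE 0.12, limma adjusted p = 0.000148). MSK39b18 was the only member with every combination array below every TNF array (background 0.172%). Its combination arrays ran from -0.36 to 0.00 and its TNF arrays from 0.03 to 0.62, with a difference of -0.46 (SE 0.11, limma adjusted p = 0.00636). Both were singled out after their values were seen.

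The combination against vehicle. The members as a list lay about as often above vehicle (72) as below it (81) after the combination, with a median difference of -0.03 log units (-0.34 to 1.5). The other 817 raised features had a median of 0.38. In limma 37 members (24.2%) were higher in the combination than in vehicle, against a background of 17.6%, and 2 (1.31%) were lower, against 18.8%. Of the other 817 raised features, 543 (66.5%) were higher. On the odd arrays the rule left all 817 of them above vehicle in the combination, so their contrast with the members is in part fixed by the choice. The 114 members without a call are not shown to be back at the vehicle level. The half-width of their 95% intervals had a median of 0.277, and the interval lay within 0.3 log units on either side of 0 for only 19 of them. The members called lower were MSK19m7 (-0.31, SE 0.12, limma adjusted p = 0.0430) and MSK03a20 (-0.30, SE 0.12, limma adjusted p = 0.0411), both named after their values were seen. With each array centred on its median, with well-row means removed, or with any of 7 of the 31 arrays left out, 0 members were lower than vehicle. With array weights 17 members were lower, as were 1336 of all 6963 features. Without vehicle array 6, 39 members were higher than vehicle (background 16.8%) and 14 lower (background 19%).

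The share of the TNF rise that was left after the combination is given by the size of the rise. The 76 members with an odd-array rise of 0.3 to 0.4 had even-array medians of 0.35 for TNF minus vehicle, -0.46 for the combination minus TNF and -0.11 for the combination minus vehicle, so their median ended below vehicle. In 44 members with a rise of 0.4 to 0.6 the same medians were 0.42, -0.33 and 0.05. In 26 members with a rise of 0.6 to 1.2 they were 0.70, -0.28 and 0.42, and the difference from vehicle that was left came to 60.0% of the TNF rise. The 7 members with the highest rises, from 1.2 upwards, had medians of 1.67, -0.65 and 1.08, with 64.6% left, and all 7 were called higher in the combination than in vehicle (background 17.6%). Of the other raised MSK features from 1.2 upwards, 10 of 11 were called higher as well. In those other features the share left was 86.6%, 75.4%, 68.7% and 118% from the lowest to the highest rises. With vehicle array 6 left out the members' medians of the combination minus vehicle were -0.20, 0.01, 0.42 and 1.03 in the same order. The bins differ in make-up, since 44 of the 76 members with the smallest rises came from the well rows a, e, i and m described below, against 1 of the 7 with the highest. A member with a small rise meets the second limit only by falling nearly all the way or further, so the order of the bins is in part fixed by the rule. The share left in the other features is in part fixed as well, since those that fell by 0.3 or more on the odd arrays were taken out as members.

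**Figure D2:**
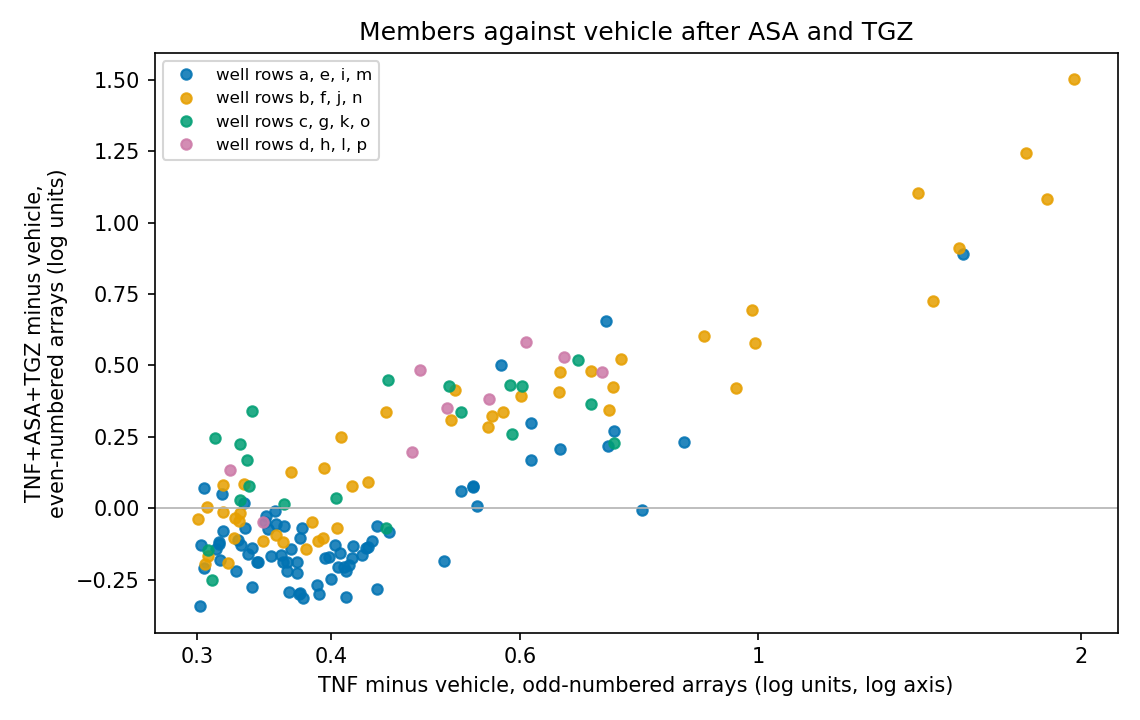
TNF+ASA+TGZ minus vehicle on the even-numbered arrays (vertical, log units) against TNF minus vehicle on the odd-numbered arrays that chose the members (horizontal, log units on a log axis), 1 point per member, coloured by well row. Members with odd-array rises from 1.2 upwards lie above 0.7 log units, while most of those between 0.3 and 0.4 lie below 0.

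A few members are given in full, the pair with the highest odd-array rise and the pair with the lowest odd-array difference between the combination and TNF. Their odd-array rises were 1.97, 1.86, 1.54 and 1.55, so they do not stand for the 76 members with rises of 0.3 to 0.4. MSK22j11 had the highest rise. Its lowest, median and highest values were 0.39, 1.52 and 2.26 on combination arrays, 1.42, 1.91 and 2.81 on TNF arrays and -1.37, 0.09 and 0.67 on vehicle arrays. All 10 TNF arrays lay above every vehicle array, and 4 of 10 combination arrays lay below every TNF array. TNF was 2.16 log units above vehicle (SE 0.25, limma adjusted p = 8.77e-08), which is 4.47-fold on the assumed base 2. The combination was 0.66 below TNF, a difference of -0.66 (SE 0.26) that missed the threshold (limma adjusted p = 0.108) and passed it with the replicate block (limma adjusted p = 0.010). It remained 1.5 above vehicle (SE 0.25, limma adjusted p = 2.58e-05).

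MSK22j3, from the same plate and well row by its identifier, had similar values. Its lowest, median and highest values were 0.57, 0.82 and 2.07 on combination arrays, 0.76, 1.87 and 2.54 on TNF arrays and -1.21, 0.24 and 0.83 on vehicle arrays. Of the TNF arrays, 9 of 10 lay above every vehicle array, and 5 of 10 combination arrays lay below every TNF array. TNF was 1.87 log units above vehicle (SE 0.23), 3.65-fold on base 2. The combination differed from TNF by -0.79 (SE 0.24, limma adjusted p = 0.0341), a call that was lost with 9 of 31 arrays left out in turn. It was 1.08 above vehicle (SE 0.23, limma adjusted p = 0.000557).

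MSK29n11 had the lowest odd-array difference between the combination and TNF. Its lowest, median and highest values were -0.17, 0.79 and 1.63 on combination arrays, 1.06, 1.55 and 2.10 on TNF arrays and -1.34, -0.06 and 0.55 on vehicle arrays. All TNF arrays lay above every vehicle array, and 7 of 10 combination arrays lay below every TNF array and also 7 above every vehicle array. The combination differed by -0.76 from TNF (SE 0.20, limma adjusted p = 0.0123), and TNF differed by 1.67 from vehicle (SE 0.19), 3.19-fold on base 2. The combination stayed 0.91 above vehicle (SE 0.19, limma adjusted p = 0.000397).

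MSK14i4 came next by that measure. Its lowest, median and highest values were -0.09, 0.98 and 1.30 on combination arrays, 0.81, 1.40 and 1.83 on TNF arrays and -0.50, 0.02 and 0.39 on vehicle arrays. All TNF arrays and 9 of 10 combination arrays lay above every vehicle array, and the remaining combination array lay among the vehicle arrays. The combination differed by -0.51 from TNF (SE 0.14, limma adjusted p = 0.0217) and by 0.89 from vehicle (SE 0.14, limma adjusted p = 1.0069e-05), and TNF was 1.40 above vehicle (SE 0.14), 2.64-fold on base 2. With a common spread or with quantile normalization, none of MSK22j3, MSK29n11 and MSK14i4 passed the threshold between the combination and TNF. Their limma adjusted p then ran from 0.0553 to 0.270.

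**Figure D3:**
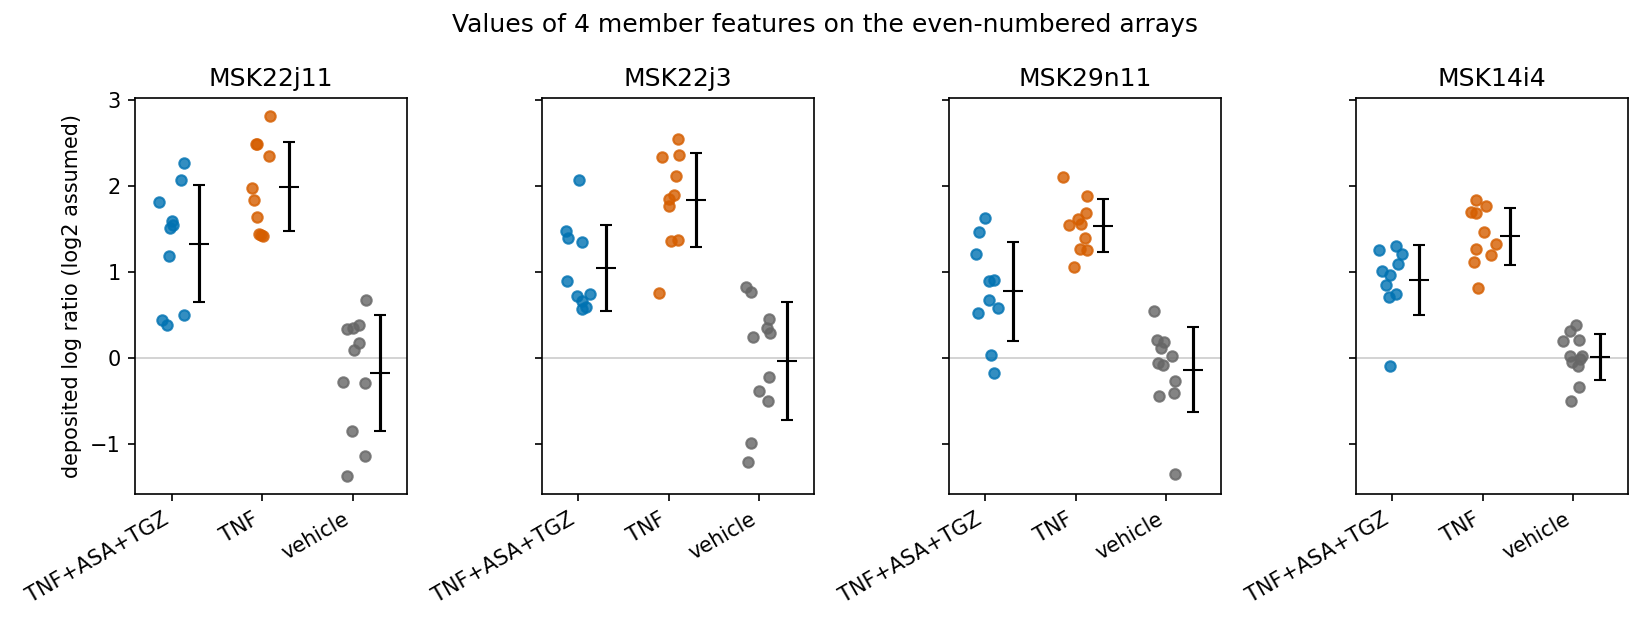
Deposited log ratios of MSK22j11, MSK22j3, MSK29n11 and MSK14i4 on the 10 TNF+ASA+TGZ, 10 TNF and 11 vehicle arrays with even numbers, 1 point per array, with mean and SD as a bar. In each panel the TNF mean lies highest and the combination mean lies between those of TNF and vehicle. The combination arrays overlap both the TNF and the vehicle arrays.

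One more member is given for the combination against vehicle. MSK30f1 was the only one with every combination array above every vehicle array (background 1.31%), and was named after its values were seen. Its combination arrays ran from 0.25 to 1.14, its TNF arrays from 0.37 to 1.34 and its vehicle arrays from -0.13 to 0.12. The difference between the combination and vehicle was 0.58 (SE 0.11, limma adjusted p = 7.59e-05).

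The mean over the members was taken on each array to see how single arrays lay. On the even arrays it averaged 0.10 ± 0.21 on combination arrays, 0.48 ± 0.14 on TNF arrays and 0.00 ± 0.18 on vehicle arrays (SD, n = 10, 10 and 11). Combination arrays ran from -0.12 to 0.38, TNF arrays from 0.22 to 0.67 and vehicle arrays from -0.42 to 0.21. TNF array 16 was the lowest of its group at 0.22, below combination array 16 at 0.30. Every even TNF array lay above the highest even vehicle array by this mean, but by little, with TNF array 16 at 0.216 and vehicle array 20 at 0.213. Among the odd arrays, vehicle array 5 at 0.241 lay above TNF array 16. The combination arrays overlapped both groups. Vehicle array 6 was lowest at -0.42, and vehicle array 17 was lowest of the odd arrays at -0.49. Without vehicle array 6, the median member difference between TNF and vehicle was 0.35 in place of 0.42. The members varied more between arrays of a group than MSK features at large, with a median SD of 0.334 in the combination, 0.262 in TNF and 0.307 in vehicle, against 0.262, 0.222 and 0.239 over all MSK features. The other raised features had 0.323, 0.251 and 0.244, so they were close to the members in the combination and in TNF. When vehicle array 6 was left out, the vehicle SD was 0.214 for the members, 0.194 for the other raised features and 0.190 for all MSK features.

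**Figure D4:**
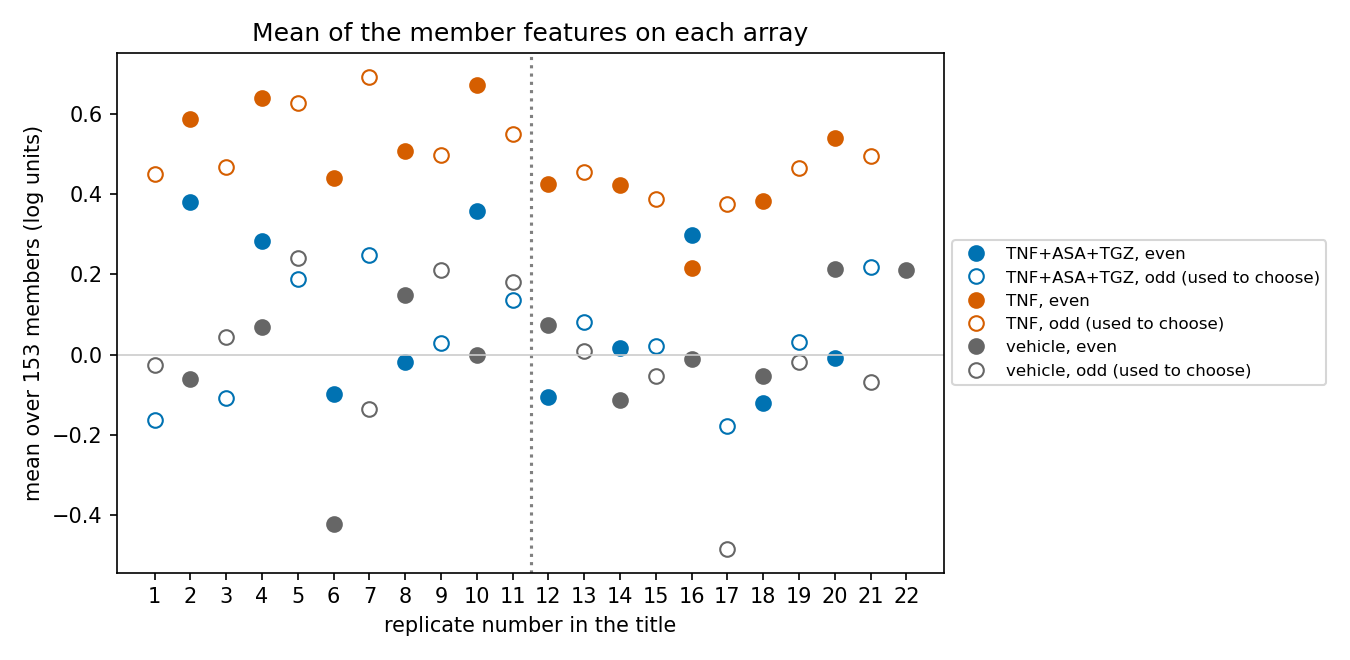
Mean over the 153 members on each of the 64 arrays (vertical, log units) against the replicate number in the title (horizontal), by group, with filled points for even numbers and open points for the odd numbers that chose the members. The dotted line divides numbers 1 to 11 from 12 upwards. Vehicle arrays 6 and 17 lie lowest, at -0.42 and -0.49.

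The labels speak of 6 collection days and 5 passages without tying them to arrays, so odd and even arrays may share them. As a check, the even arrays were split into replicate numbers 1 to 11 and 12 upwards. TNF minus vehicle was positive in both for 137 of 153 members, with a background of 37.1%, and the combination minus TNF was negative in both for 147, with a background of 28.1%. The median of TNF minus vehicle was 0.59 in the lower numbers and 0.25 in the higher ones, and that of the combination minus TNF was -0.42 and -0.40. The combination minus vehicle had a median of 0.19 in the lower numbers and -0.14 in the higher ones. Vehicle array 6 is among the lower numbers, and without it their medians were 0.44 for TNF minus vehicle and 0.02 for the combination minus vehicle. In the higher numbers 26 members were higher in the combination than in vehicle (background 12.5%) and 31 lower (12.8%). In the lower numbers 15 were higher (8.23%) and 0 lower (8.69%). When the size of each difference was compared between the 2 sets of numbers by limma, 0 members were called in any comparison. At an unadjusted p under 0.05 TNF against vehicle had 30 such members (19.6%, against 5.66% of all features), the combination against TNF had 4 (2.61%, against 4.68%) and the combination against vehicle had 26 (17%, against 9.19%).

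The identifiers have the form of a plate number, a well row from a to p and a well column, and the members were unevenly spread over the well rows. Rows a, e, i and m held 76 members of 1722 MSK features (4.41%), rows b, f, j and n held 48 of 1826 (2.63%), rows c, g, k and o held 20 of 1598 (1.25%) and rows d, h, l and p held 9 of 1518 (0.593%). All 26 plates had at least 1 member and at most 11. On the even arrays 35 of the 76 members of rows a, e, i and m rose with TNF in limma (background 20.5%). In the other row classes, in the same order, 44 of 48, 20 of 20 and 8 of 9 rose. The even-array median of the combination minus vehicle was -0.14 for members of rows a, e, i and m, against 0.20, 0.24 and 0.38 in the other row classes in the same order. Leaving out vehicle array 6 made it -0.23 in rows a, e, i and m. Of the 76 members there, 12 were then called lower than vehicle (background 19%), in place of 2 (background 18.8%). Over all MSK features of rows a, e, i and m, the median of TNF minus vehicle was 0.05 on the odd arrays and -0.13 on the even ones. Their even-array median of the combination minus vehicle was -0.15, near the -0.14 of the members of these rows. In the other row classes it was 0.015, 0.0335 and 0.005 over all MSK features. These medians were measured over features of any response. With well-row means removed, the members' medians of the combination minus vehicle were -0.03, 0.17, 0.21 and 0.38 in the 4 row classes.

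Vehicle array 17, which entered the choice of members, had a marked well-row pattern. Well rows accounted for 67.7% of its variance over features, against a median of 2.18% over all arrays, and its mean was -0.82 in rows a, e, i and m and 0.47 in rows d, h, l and p. The well rows accounted for 1.51% of vehicle array 6. They accounted for over 20% on 4 of the even arrays that measured the members, with 33.8% on vehicle array 18, 33.2% on vehicle array 22, 31.2% on TNF array 16 and 20.7% on combination array 18. Of the odd arrays used for the choice 3 exceeded 20%, array 17, vehicle array 5 (30.5%) and TNF array 5 (20.8%). Chosen without array 17, the list held 115 members, 95 of them among the 153, and rows a, e, i and m held 28 of them (24.3% in place of 49.7%). On the even arrays 102 of these 115 rose with TNF (background 20.5%) and 43 fell with the combination (background 5.46%). In the combination 38 were higher than in vehicle (background 17.6%) and 1 was lower (background 18.8%). Their median differences were 0.48 for TNF minus vehicle, -0.34 for the combination minus TNF and 0.14 for the combination minus vehicle. The last median lay above 0, while that of the 153 lay near 0 with a sign that depended on the setting. It was -0.03 as deposited, -0.08 with array weights, 0.01 with the replicate block, 0.04 with well-row means removed, and above 0 with 4 of the 31 arrays left out.

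The mean of each well row was also removed from every array before the members were chosen and measured. This left 117 members, 97 of them shared with the 153 (63.4% of these and 82.9% of the 117), with 37, 32, 26 and 22 in the 4 row classes in the order above. Of the 117, 109 rose with TNF (background 22.8%), 61 fell with the combination (background 7.24%) and 37 were higher in the combination than in vehicle (background 20%). For the 153 as first chosen, measuring with well-row means removed gave 138, 79 and 41 against the same backgrounds. The directions of TNF against vehicle and of the combination against TNF did not turn with well row, while the median of the combination minus vehicle was 0.11 in the 117.

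**Figure D5:**
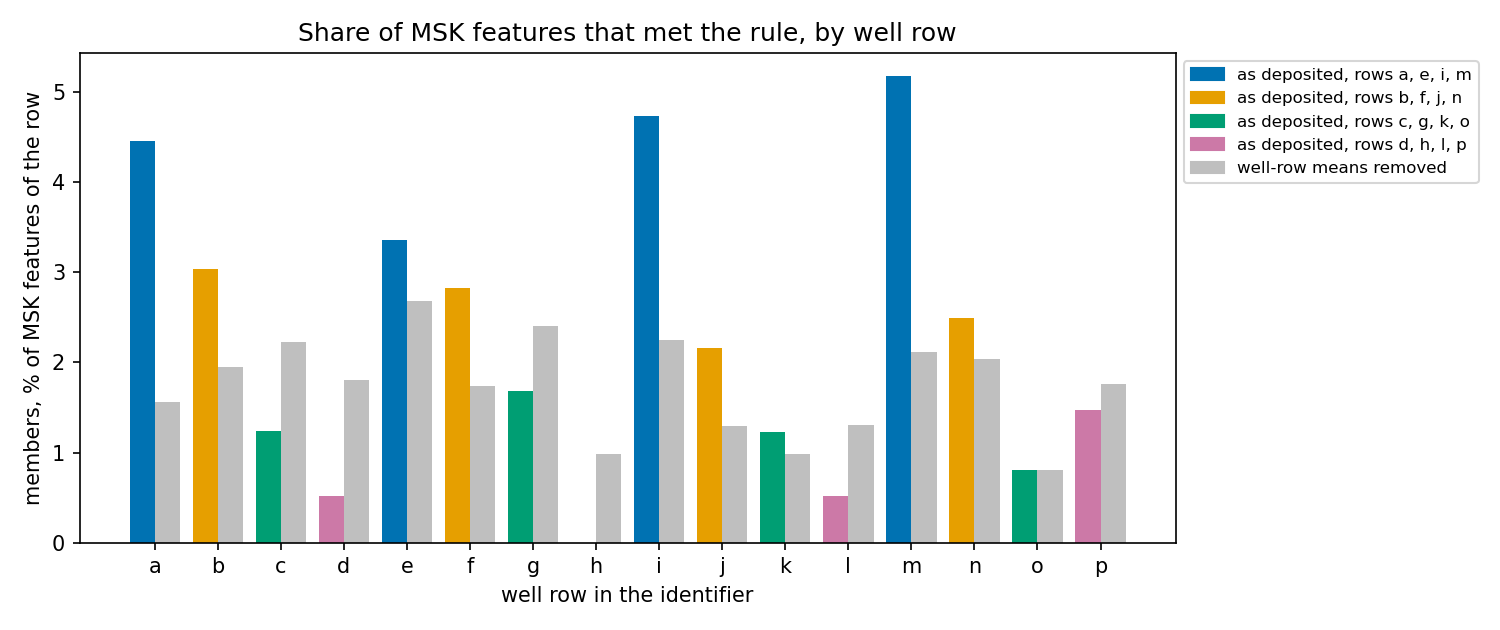
Share of the MSK features of each well row that met the rule, in percent (vertical), by well row a to p (horizontal). Coloured bars give the deposited values, with 4.41% over rows a, e, i and m and 0.593% over rows d, h, l and p, and grey bars give the members chosen after well-row means were removed, with 2.15% and 1.45%.

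Members also varied together from array to array once group means were removed. Over the 31 even arrays the median correlation between pairs of members was 0.25, against 0.101 for the other raised features and -0.0009 for all MSK features. The first component held 39.8% of the members' variance and 19.3% of that of all MSK features. In rows a, e, i and m, member pairs had a median of 0.570, against 0.237 for all MSK features of those rows. Members of rows b, f, j and n had 0.149, against 0.0524 for all of their rows. These correlations share arrays, hybridisations and well positions, and are given as a description. Over the 30 even arrays other than vehicle array 6 the median was 0.304 for the members, 0.0866 for the other raised features and -0.00057 for all MSK features. In rows a, e, i and m it was then 0.599 for members, against 0.283 for all MSK features.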

How the data were processed

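The deposited table holds 1 value per feature and array for 64 arrays, taken as log2 ratios of Cy5 over Cy3. Per the labels, Cy5 carried the culture and Cy3 the pool, from 20 µg of total RNA. The sources used here do not give the background correction, the normalization or the log base, and no depth applies to arrays. The number of arrays limits the precision. No value was missing (0), and no feature was filtered or averaged.

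Arrays were grouped by title. The series text calls the replicates independently grown. Group means were fitted to the 31 even-numbered arrays over all 6963 features by lmFit and eBayes of limma 3.58.1 (R 4.3.3), without a block. Two-sided p-values were adjusted after Benjamini and Hochberg and called under 0.05. Summaries used Python 3.11.15 with pandas 2.3.3. The members, the lists and the alternatives were chosen with earlier results of these data known. The lists of genes could not be used without gene names. The features named were the 2 members with the highest rise and the 2 with the lowest difference between the combination and TNF on the odd arrays. Single features behind a small count were added after their values were seen.

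Same-numbered arrays deviated together after group means were removed. Over 10 pairs, r had a median of 0.342 between TNF and vehicle (lowest 0.211) and of 0.407 between the combination and TNF (lowest 0.100). Between the combination and vehicle the median was 0.259 (lowest 0.0864), and 9 of 10 pairs exceeded 0.1. The same-numbered array correlated best in 9, 7 and 7 of 10 cases in this order. The labels state no pairing. The replicate block used numbers 2 to 20 only.

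Alternatives were the replicate block, array centring, scaling to a common median absolute deviation (common spread), quantile normalization, array weights, each set of replicate numbers alone or as a block, well-row means removed, each array left out in turn, a stricter threshold, a 1.2-fold difference tested against, and other ways to choose the members.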

Additional observations from a re-analysis of the deposited data

Results flagged for a closer look

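MSK14i4 on combination array 6 was -0.09 log units, far from the other 9 even combination arrays, which ran from 0.71 to 1.30. This was 1 of 10 sets of values tested for a lone array (the 4 named members and the member mean, in the combination and in TNF). Chance alone marks about 1 in 20. On the same array the mean over the members was -0.10. Without it, MSK14i4 differed by -0.40 between the combination and TNF, in place of -0.51.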

How the results depend on the processing

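The medians of TNF minus vehicle and of the combination minus TNF kept their sign under all 46 other settings. With each array left out in turn, the first ran from 0.345 to 0.452 and the second from -0.430 to -0.369, while the combination minus vehicle ran from -0.063 to 0.011. Members higher in TNF ran from 92 to 123, those lower in the combination than in TNF from 38 to 85, those different from vehicle after the combination from 33 to 53, and those meeting both limits from 48 to 91. Over all features the counts ran from 2924 to 3255 for TNF against vehicle, 409 to 866 for the combination against TNF and 2266 to 2612 for the combination against vehicle. The counts of features, here and in the paragraphs that follow, take calls in either direction. Members were counted as higher in TNF, as lower in the combination than in TNF, and in either direction against vehicle.

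With the replicate block the counts of members were 122, 89 and 47. Over all features the block called 3682, 1009 and 3118 in either direction in the same 3 comparisons, where the second had 600 without it. The block changed no call of the 4 named members other than that of MSK22j11.

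A common spread gave 68 members higher in TNF, 17 lower in the combination than in TNF and 30 meeting both limits. It called 1784 and 187 features in either direction in the same 2 comparisons. Quantile normalization gave 68, 24, 33, 1877 and 231 for the same measures. The features called in the direction of the members were 983 and 104 with a common spread, and 989 and 137 after quantile normalization. Array weights left 55 members meeting both limits. The share of MSK features meeting both limits is not given for a common spread, quantile normalization or array weights. The lower counts meeting both limits there do not show a loss particular to the members. At an adjusted p of 0.01, 64, 18 and 28 members passed, with 1944, 210 and 1557 features for the 3 comparisons. These feature counts hold both directions, and their split at 0.01 is not given here. Tested against a 1.2-fold difference, 27, 1 and 9 members passed, with 482, 37 and 377 features.

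Replicate numbers 1 to 11 alone, with 5 arrays per group, gave 69, 2 and 15 members, a median of 0.194 for the combination minus vehicle, and 1349, 72 and 1178 features. Numbers 12 upwards gave 57 and 37 members, 35 meeting both limits, and 1979 and 373 features in the first 2 comparisons. In the direction of the members there were 881 and 257 features. Fewer arrays entered each of these fits. For the higher numbers the share of MSK features meeting both limits is not given. The count of 35 therefore does not show a loss particular to the members.

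Limits of 0.2 in the rule gave 409 members with counts of 272, 144 and 106, and 195 meeting both limits of 0.3. The shares of all features are as for the 153, with 20.5% higher in TNF, 5.46% lower in the combination than in TNF, and 17.6% higher and 18.8% lower than vehicle. Limits of 0.4 gave 43 members with 34, 21, 12 and 28. Chosen without vehicle array 17, 43 of 115 fell with the combination. An alternative chosen after seeing the data left out array 17 from the choice and array 6 from the measurement. It gave a median of 0.157 for the combination minus vehicle and 48 of 115 members meeting both limits. Of 480 values of the named members under 40 settings, 458 kept direction and call, 21 lost the call, 1 gained it and 0 turned. Where no cause is given, the cause was not tested.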
